A study of Solanum tuberosum with 9 samples.

Results

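Leaves of potato plants whose extracts stimulated the growth of mustard seedlings (bulk sample F’) were compared with leaves of plants whose extracts had low phytotoxic potential (bulk sample B’, used as the control). The comparison took 6 of the 9 libraries of the series, 3 libraries of F’ and 3 of B’, and the 22988 genes listed in both deposited comparisons, of 24169 genes listed in either. All plants belonged to the diploid hybrid population 15-1, grew in pots in a greenhouse, were untreated, and gave leaves at full anthesis. F’ carried the labels of high glycoalkaloids and hormesis, B’ those of high glycoalkaloids and low phytotoxic potential, and the third bulk, A’, those of high glycoalkaloids and high phytotoxic potential. Each bulk was mixed from the leaves of 3 individuals, and how the 3 libraries of a bulk arose is not given in the sources used here. P-values therefore measure the spread between these libraries, which may be technical, and hold for these mixed samples only. The deposited tables set B’ and F’ each against A’, so the question here was how leaves of F’ and B’, which were alike in their glycoalkaloid label, differed from each other.

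Potato leaves make steroidal glycoalkaloids from sterol precursors of the mevalonate pathway, and phenolic compounds from phenylalanine through the phenylpropanoid and flavonoid pathways. Both kinds of compound can act on neighbouring plants when they leach from leaves, and a compound that inhibits growth at a high dose may stimulate it at a low dose, which is called hormesis. Cytochrome P450 enzymes and UDP-glycosyltransferases oxidise and glycosylate such compounds. The growth and defence states of a leaf are read from other genes, among them expansins, which loosen cell walls, and WRKY factors and pathogenesis-related (PR) proteins, which act in the response to pathogens.

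Between 22027727 and 22388763 reads were counted on these genes in the F’ libraries, against 22080117 to 22345224 in the B’ libraries, so depth hardly differed. Read counts per library are given below without normalization, and a Log2FC is that of F’ over B’ after TMM normalization in edgeR, so that a positive value is higher in F’. In a principal component analysis, component 1 held 70.5% of the variance and separated F’ from B’. Component 2 held 16.4% and ran across the bulks. F’ library 2 (34.8) and B’ library 3 (−36.0) lay at its ends, each apart from the other libraries of its own bulk. B’ libraries 1 and 2 lay on the positive side with F’ library 2. F’ libraries 1 and 3 lay on the negative side with B’ library 3. What component 2 reflects was not tested. List and family counts that move by over 1.5 times without both F’ library 2 and B’ library 3 are given beside the results. The coefficient of variation between libraries was 0.134 within F’ and 0.159 within B’. Genes that mark leaf mesophyll, such as those for chlorophyll a-b binding proteins and RuBisCO activase, were abundant in every library and summed to between 2721000 and 3263000 normalized counts in F’ against 1901000 to 2295000 in B’. Of 43 tested mesophyll markers, 14 were higher and 8 were lower in F’. Of 49 tested markers of dividing cells, 13 were higher and 3 lower, with sums of 49160 to 53430 in F’ and 38350 to 43300 in B’. Of 13 phloem markers, 7 were lower and 0 higher in edgeR (0 at an unadjusted p under 0.05 and 0 in DESeq2). Their summed counts overlapped (30640 to 44520 in F’ and 32910 to 49660 in B’). Of 10 tuber storage markers, 4 were lower and 0 higher in edgeR (0 at an unadjusted p under 0.05 and 0 in DESeq2), with sums of 2512 to 3139 in F’ and 3711 to 5557 in B’. Of 8 markers of senescing leaves, 4 were lower, 3 of them past the cutoff, and 1 was higher, and their sums overlapped (8816 to 10730 in F’ and 9463 to 10500 in B’). In bulk leaves, fewer cells of a type and less RNA per cell cannot be told apart, and the part of cell composition in the results was not tested.

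Of the 22988 genes, 19308 had enough counts for a test. DEGs, genes with an FDR under 0.05 in edgeR’s quasi-likelihood test, numbered 5785. These were 30% of the genes tested. The counts of 2639 DEGs (13.7%) were higher and those of 3146 (16.3%) were lower in F’. The median Log2FC was 0.78 among DEGs that were higher and −0.99 among those that were lower. A further cutoff at an absolute Log2FC of 2 was passed by 672 DEGs (3.48%), with 252 (1.31%) higher and 420 (2.18%) lower in F’. In 80 of these 672, a bulk had at most 3 counts in each library. Such a bulk is called at the floor here, and 3 counts then stood in for that bulk, which makes the fold change a minimum. Libraries of F’ and B’ did not overlap for 8552 genes (44.3%). For 3 libraries against 3, the smallest two-sided p-value of an exact permutation test is 0.1. Without F’ library 2 and B’ library 3, which was tried after seeing the data, 4123 genes were higher and 4290 lower. The cutoff was passed by 399 of the higher and 422 of the lower ones, and 5452 of the 5785 DEGs were called again. The libraries then left also differed by bulk along component 2, with F’ on its negative and B’ on its positive side. These counts therefore mix bulk and component 2. Gene lists, made by words in the product names, are set below against the background of 13.7% higher and 16.3% lower. The median Log2FC over all genes tested was −0.0002.

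**Figure D1:**
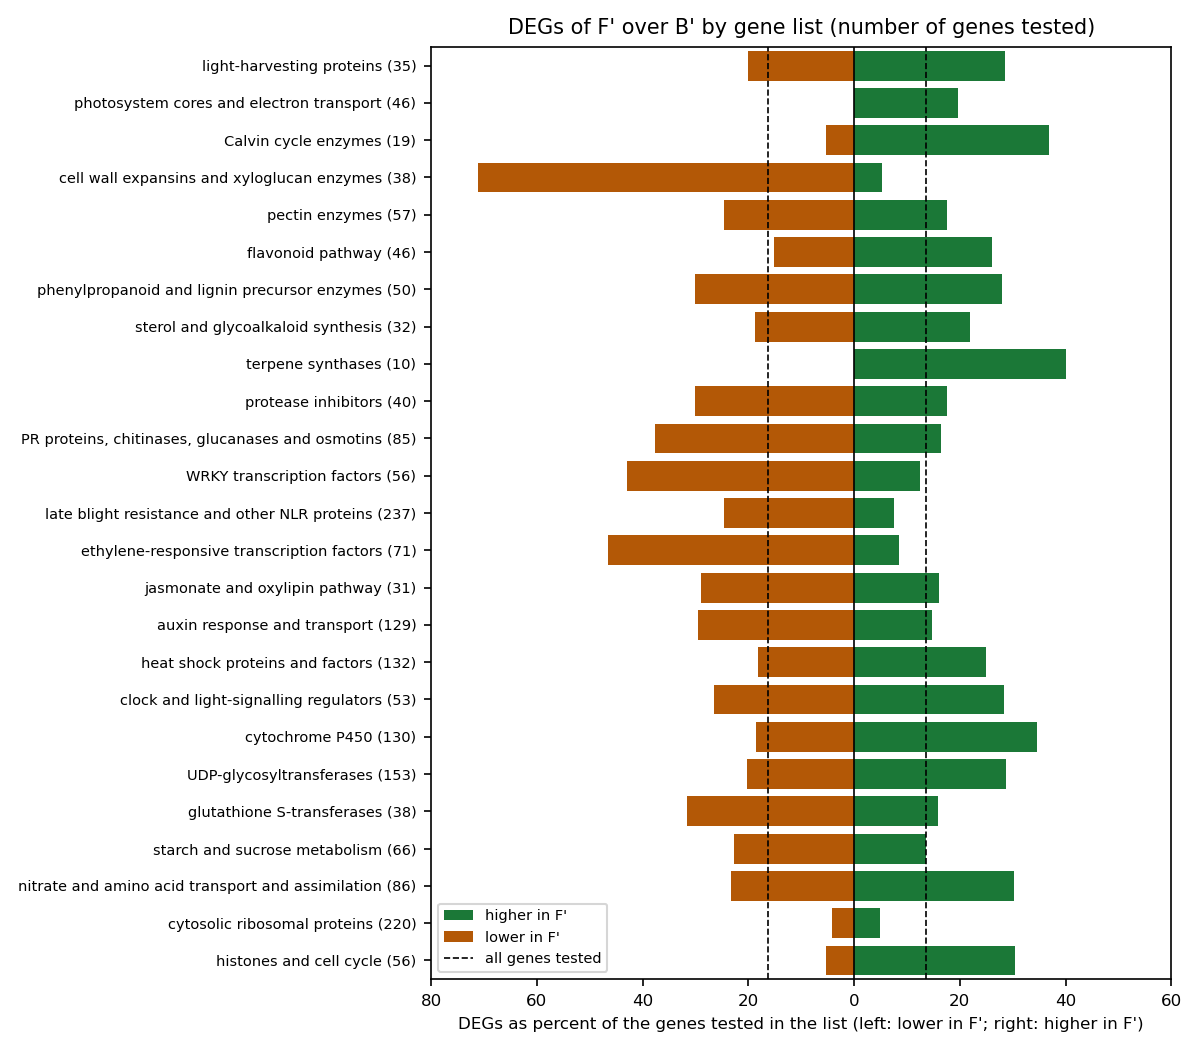
Share of the tested genes of each list that were DEGs higher (right) or lower (left) in F’ than in B’, in percent, with the same shares over all genes tested. Expansins and xyloglucan enzymes had the highest share lower in F’ (71.1% of 38), against 16.3% of all genes.

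Among named products with clear counts, the largest differences were in genes with very few or no counts in F’ or in B’. According to the paper, the plants descend from a hybrid mother and a father of the wild species S. chacoense. Reads were counted on genes of the potato RefSeq assembly. Whether genes without counts in a bulk were not expressed, were absent, or had reads that were not placed was not tested. A gene for a UPF0481 protein (LOC102605914) had 427, 309 and 424 counts in the F’ libraries but 0 in all B’ libraries, a difference of at least 139-fold. The Werner Syndrome-like exonuclease gene LOC102594853, on chromosome 4, had 366, 456 and 410 counts in F’, against 2, 2 and 3 in B’, a difference of at least 149-fold. Other genes at the floor in B’ were the chitin-binding lectin 1-like gene LOC107058371 (at least 23.4-fold), the WD repeat-containing protein 48-like gene LOC102603653 (at least 33.8-fold) and the flavin-containing monooxygenase gene LOC102605841 (at least 36.1-fold). These genes were picked among DEGs whose F’ and B’ libraries did not overlap.

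The zeatin O-glucosyltransferase-like gene LOC107061998 (chromosome 4, positions 518286 to 519269 of its contig) had 141, 117 and 111 counts in F’, against 4, 3 and 1 in B’ (Log2FC 5.57, standard error 0.357, FDR 4.35e-06). Enzymes of this name attach a sugar to the cytokinin zeatin and so store it in an inactive form. The neighbouring zeatin O-xylosyltransferase-like gene LOC107061997 (positions 496903 to 497391 of the same contig) had 80, 63 and 96 counts in F’ and 6, 8 and 3 in B’ (Log2FC 3.89, standard error 0.362, FDR 3.39e-05). A cytochrome P450 82C4-like gene (LOC102582216) had 570, 650 and 549 counts in F’ and 30, 22 and 32 in B’ (Log2FC 4.51), and it lies on the same contig as the zeatin-related genes. The myricetin O-methyltransferase-like gene LOC102593171 had 683, 765 and 702 counts in F’, against 12, 25 and 39 in B’ (Log2FC 4.94), and between 1685 and 1737 in A’. Extensin-1 (LOC102583692), a structural protein of the cell wall, had a Log2FC of 4.40, as had a laccase-3-like gene (LOC102597748). Laccases oxidise phenolic compounds, lignin precursors among them. A serine carboxypeptidase-like gene (LOC102594356) had a Log2FC of 5.27 and a heterogeneous nuclear ribonucleoprotein gene (LOC102581600) of 4.87.

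At the lower end, a salicylate carboxymethyltransferase-like gene (LOC102578543) had 1, 1 and 0 counts in F’, against 162, 173 and 135 in B’, and was at least 48.4-fold lower in F’. Salicylate carboxymethyltransferase makes methyl salicylate, a volatile form of the defence hormone salicylic acid. The metal transporter gene LOC102584518 (Nramp5-like) had 1, 1 and 4 counts in F’ and 236, 265 and 335 in B’ (Log2FC −6.92, standard error 0.335, FDR 1.57e-06), with 1, 2 and 2 in A’. Cytochrome P450 72A15-like (LOC102602896) had 0 counts in each F’ library and 77, 83 and 53 in B’ (at least 22.0-fold lower). The cis-prenyltransferase gene LOC102582972 was at least 30.2-fold lower and an intracellular ribonuclease LX-like gene (LOC102584808) at least 20.6-fold lower in F’. Protein GAST1-like (LOC102603432), named after a tomato gene induced by gibberellin, had 133, 130 and 143 counts in F’, against 2311, 2338 and 2530 in B’ (Log2FC −4.03, standard error 0.118, FDR 1.82e-07). It was the most evenly counted of these genes, with an SD of 8.3 on a mean of 141 normalized counts in F’ and of 20.7 on 2303 in B’. A’ had 1987 to 2261 counts of it. The remaining genes of the largest negative Log2FC were a GDSL esterase/lipase gene (LOC102582015, −4.83), a SUPERMAN-like regulator gene (LOC102585208, −4.45), a ribonuclease 3-like gene (LOC102605271, −4.42) and an ankyrin repeat gene (LOC102601686, −4.01).

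**Figure D2:**
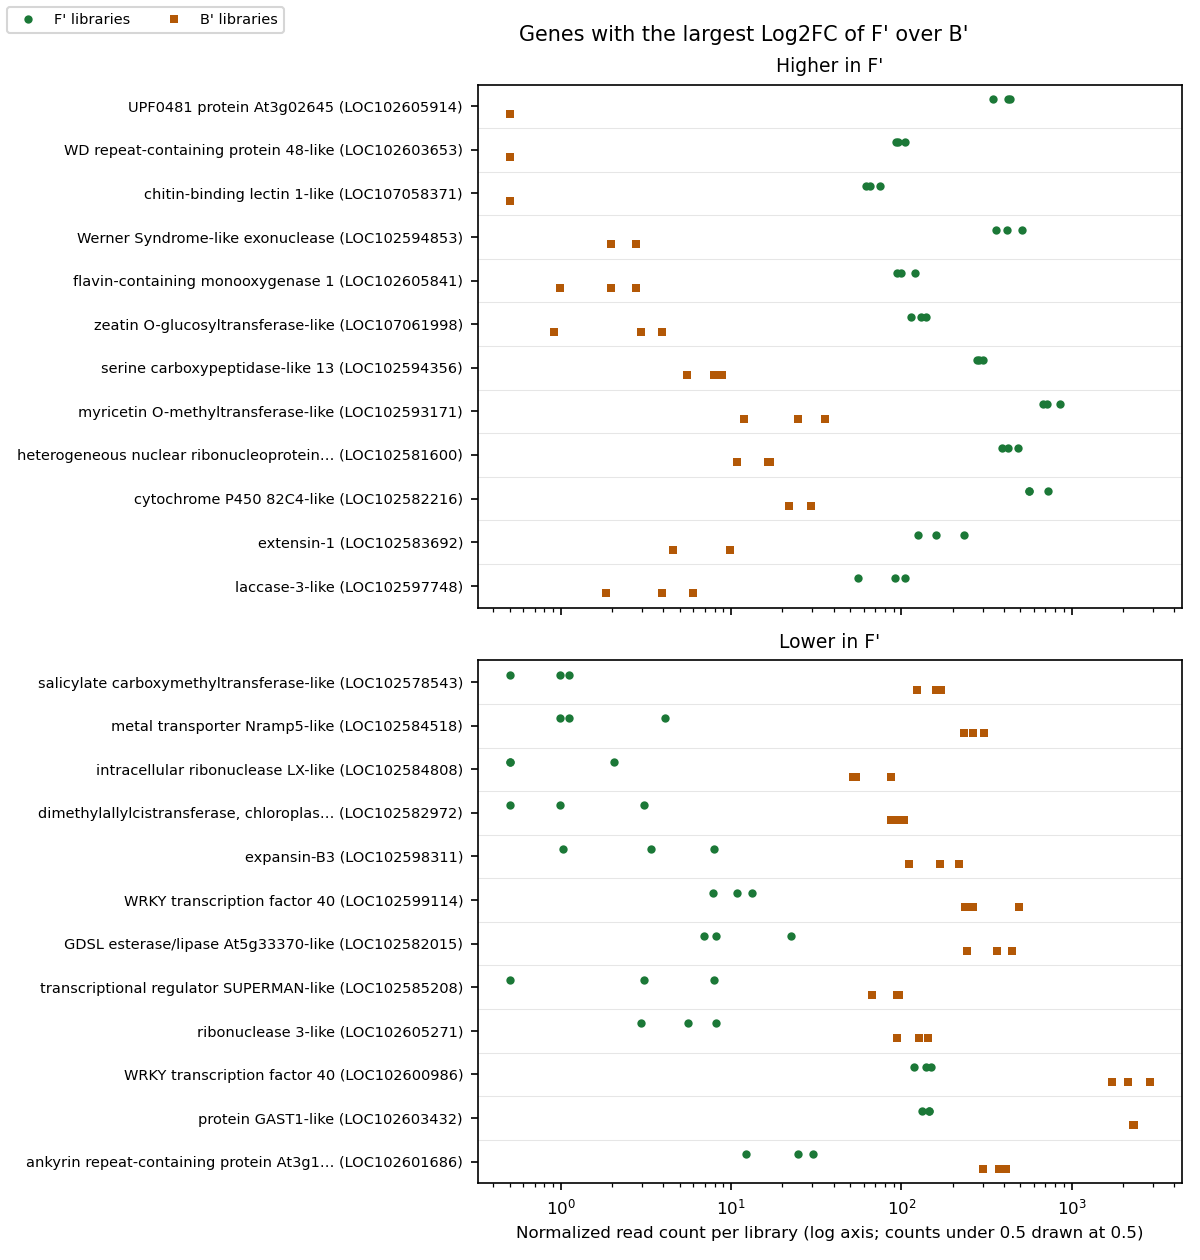
Normalized read counts per library (log axis, counts under 0.5 drawn at 0.5) of the 12 named genes with the largest positive Log2FC (top) and the 12 with the largest negative Log2FC (bottom), with F’ and B’ libraries as separate points. The 24 genes were picked among DEGs whose libraries did not overlap, so the separation of the points follows from the choice.

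Among the lists, the genes of cell wall loosening had the largest share lower in F’, 71.1% against 16.3% of all genes. Expansins loosen the bonds between cellulose and hemicellulose, and xyloglucan endotransglucosylases (XTH) cut and rejoin xyloglucan chains. Of 38 tested members, 27 were lower and 2 were higher in F’, and 9 passed the cutoff on the lower side. The median Log2FC of the list was −1.36. Of the 16 expansins tested, 13 were lower and 0 higher in edgeR (0 at an unadjusted p under 0.05 and 0 in DESeq2, and 1 without F’ library 2, without B’ library 3 or without both), and of the 22 XTH genes, 14 were lower and 2 higher. Expansin-B3 (LOC102598311, chromosome 7) had 8, 3 and 1 counts in F’, against 221, 170 and 122 in B’ (Log2FC −5.28, standard error 0.459, FDR 2.22e-05). The more abundant expansins moved less. Expansin-A8 (LOC102577497) had 730, 710 and 740 counts in F’ and 3420, 3270 and 2620 in B’ (Log2FC −1.99). Expansin-A11 (LOC102577499) had 608, 573 and 647 counts in F’, against 2881, 2464 and 2046 in B’ (−1.91), and expansin-A10 (LOC102580995) had 158, 172 and 168 in F’, against 1162, 990 and 693 in B’ (−2.41). In each of these, every F’ library was below every B’ library, while the B’ libraries spread by more than the F’ libraries. Libraries did not overlap for 44.3% of all genes tested. The A’ counts of expansin-A8 (4426 to 4713) and expansin-A11 (2509 to 2620) were above those of every F’ library. Expansins that did not pass the test were expansin-A13 (LOC102577708, 249, 233 and 224 counts in F’ and 282, 255 and 254 in B’), an expansin-A3-like gene (LOC102600255) and an expansin-like B1 gene (LOC102592278).

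Among XTH genes, LOC102603337 (protein 9) had 632, 628 and 663 counts in F’ and 2143, 2082 and 2042 in B’ (Log2FC −1.59). LOC102588287 (XTH 2) had 487, 345 and 482 counts in F’, against 1431, 1516 and 2045 in B’ (−1.81). The XTH 2-like gene LOC102594338 had 0, 1 and 0 counts in F’ and 24, 21 and 19 in B’, at least 6.58-fold lower. The exceptions were LOC102599489 (protein 31-like), with 136 counts in each F’ library and 34, 38 and 45 in B’ (Log2FC 1.92), and LOC102591177 (1.54). The most abundant XTH genes, LOC102580938 and LOC102593938, did not pass the test (Log2FC 0.05 and −0.24). The sums over the list were 19820 to 22600 normalized counts in F’, against 28850 to 35400 in B’.

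**Figure D3:**
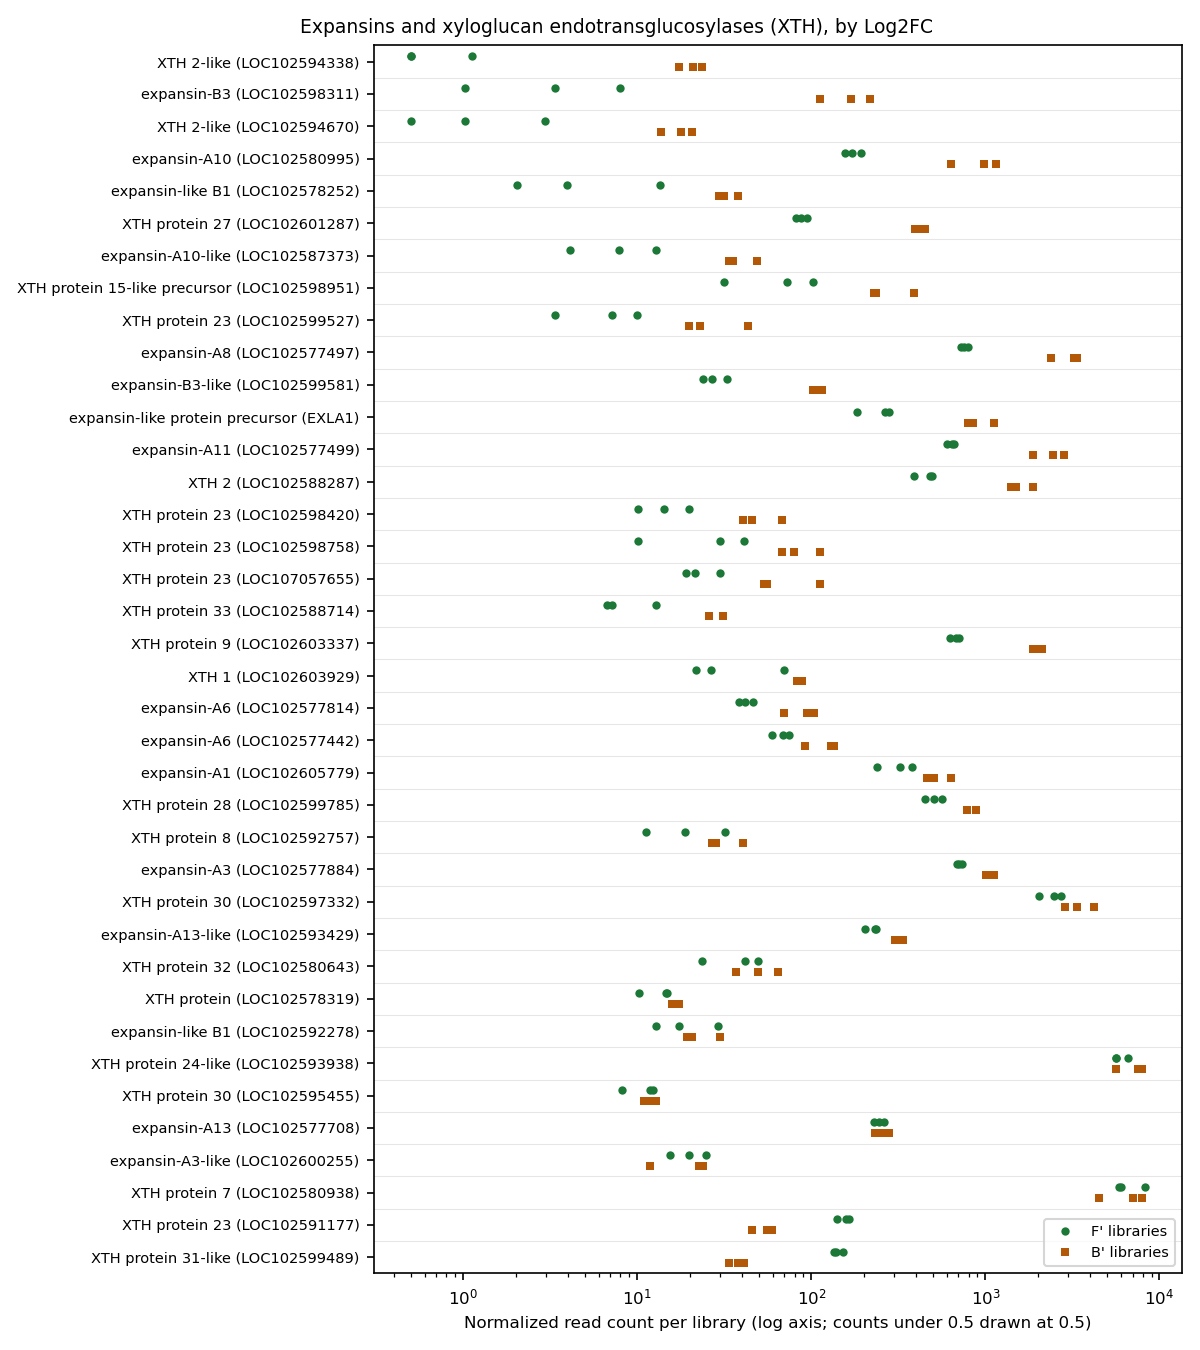
Normalized read counts per library (log axis) of the tested expansin and XTH genes, ordered by Log2FC, with F’ and B’ libraries as separate points. Of the 38 genes, 27 were DEGs lower in F’, and the last 2 were DEGs higher in F’.

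Pectin enzymes, which remove methyl groups from pectin or cleave it, had members on both sides. Of 57 tested, 10 were higher and 14 lower, with a median Log2FC of 0.04. The number of higher members was 4 without F’ library 1, 5 without B’ library 2 and 18 without F’ library 2 and B’ library 3. Pectinesterase 3 (LOC102588428) had 272, 183 and 234 counts in F’, against 1929, 1633 and 1487 in B’ (Log2FC −2.77), and probable pectate lyase 8 (LOC102603970) had 8, 6 and 10 in F’ and 71, 66 and 35 in B’ (−2.73). Probable pectate lyase P18 (LOC102586644) went the other way, with 64, 89 and 87 counts in F’ and 9, 3 and 3 in B’ (4.08), and a probable polygalacturonase (LOC102581240) had 24, 25 and 17 counts in F’ and lay at the floor in B’ (at least 7.97-fold higher).

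Of 129 tested genes of auxin response and transport, 38 were lower and 19 higher in F’. The number of higher members was 12 without F’ library 3 or B’ library 2, and that of lower members was 22 without F’ library 1 and 25 without B’ library 2. In the SAUR family, small proteins induced early by auxin during cell expansion, 17 of 38 tested were lower and 3 higher. Leaving out a library gave 9 lower genes without F’ library 1 and 11 without B’ library 2. The summed counts of the family ran the other way, with 6167 to 7263 normalized counts in F’ and 4965 to 5646 in B’. SAUR71-like LOC102585863 had 1, 4 and 0 counts in F’, against 29, 32 and 31 in B’ (Log2FC −3.99). SAUR32 (LOC102596817) was among the higher ones, with 821, 568 and 912 counts in F’ and 262, 302 and 402 in B’ (1.36). PCNT115-like LOC102605459, named as auxin-induced, had 27, 12 and 27 counts in F’ and 279, 299 and 482 in B’ (−3.88). At high counts, the auxin-binding protein ABP19a-like gene LOC102602789, a germin-like protein by its family, had 7873, 7747 and 8235 counts in F’, against 40471, 40376 and 27527 in B’ (Log2FC −2.08, standard error 0.179, FDR 2.13e-05). Auxin response factor 17 (LOC102588218) had 115, 99 and 101 counts in F’ and 22, 9 and 27 in B’ (2.55). The auxin efflux carrier component 7 gene LOC102583370, with 1814, 1521 and 1803 counts in F’ and 3915, 3743 and 3394 in B’, was lower, and auxin response factor 4 (LOC102602099) had 1.03.

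Phenylalanine ammonia-lyase (PAL) makes cinnamic acid from phenylalanine and so opens the phenylpropanoid pathway. Of the 10 PAL genes tested, 7 were lower and 1 higher in F’ (2 higher without F’ library 2, also when B’ library 3 was left out too), and 4 passed the cutoff on the lower side. PAL 1 (LOC102596891, chromosome 3) had 370, 262 and 342 counts in F’, against 2222, 2223 and 2353 in B’ (Log2FC −2.70, FDR 1.2e-06). LOC102585357, LOC102587888 and LOC102585026 lie on a single unplaced contig, between positions 278717 and 330225, and had Log2FC of −3.22, −2.89 and −2.65. LOC102585026 had 157, 92 and 134 counts in F’ and 860, 810 and 922 in B’. The PAL-like gene LOC102596017, annotated as a low-quality protein, had 1489, 1674 and 1509 counts in F’ and 991, 1020 and 972 in B’ (0.77), and LOC102597781 and LOC102582618 did not pass the test. Counting may have divided reads among these near copies, so the values of single copies are uncertain. Summed over the family, PAL genes had 3445 to 3594 normalized counts in F’ and 6919 to 7373 in B’.

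After PAL, some steps of the pathway had members on both sides and others did not. Of all 50 phenylpropanoid genes tested, 14 were higher and 15 lower, with a median Log2FC of 0.09. These counts include the PAL genes, with 1 of the higher and 7 of the lower genes. Cinnamate 4-monooxygenase, the step after PAL, had 2 genes tested, and neither passed (Log2FC −0.34 and FDR 0.053 for LOC102605644, and −0.25 and 0.117 for LOC102605307). 4-coumarate-CoA ligase 2 (LOC102584603), which activates coumaric acid, had 972, 883 and 950 counts in F’, against 211, 218 and 263 in B’ (Log2FC 2.13, FDR 1.58e-06). Of 4 genes for hydroxycinnamoyl transfer and CYP98A hydroxylation, which lead to caffeic acid esters, 3 were higher, and the lowest Log2FC of the 4 was 0.59. CYP98A3-like LOC102578406 had 101, 59 and 83 counts in F’ and 16, 18 and 26 in B’ (2.12), and CYP98A2-like LOC102578747 had 891, 826 and 837 in F’ and 447, 481 and 464 in B’ (0.99). Caffeoyl-CoA O-methyltransferase 6 (LOC102586472) had 194, 226 and 227 counts in F’, against 34, 42 and 31 in B’ (2.71), while another gene for this enzyme (LOC102586332) had 8, 4 and 9 counts in F’ and 53, 70 and 84 in B’ (−3.17). Of 4 cinnamyl alcohol dehydrogenases, which make lignin alcohols, 2 were lower and 1 higher. LOC102579562 had 0, 2 and 0 counts in F’, against 14, 11 and 17 in B’, and was at least 4.28-fold lower. LOC102602480 had 3364, 3779 and 3565 counts in F’ and 1065, 1299 and 1196 in B’ (1.71), and LOC102584649 had a Log2FC of −0.75.

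**Figure D4:**
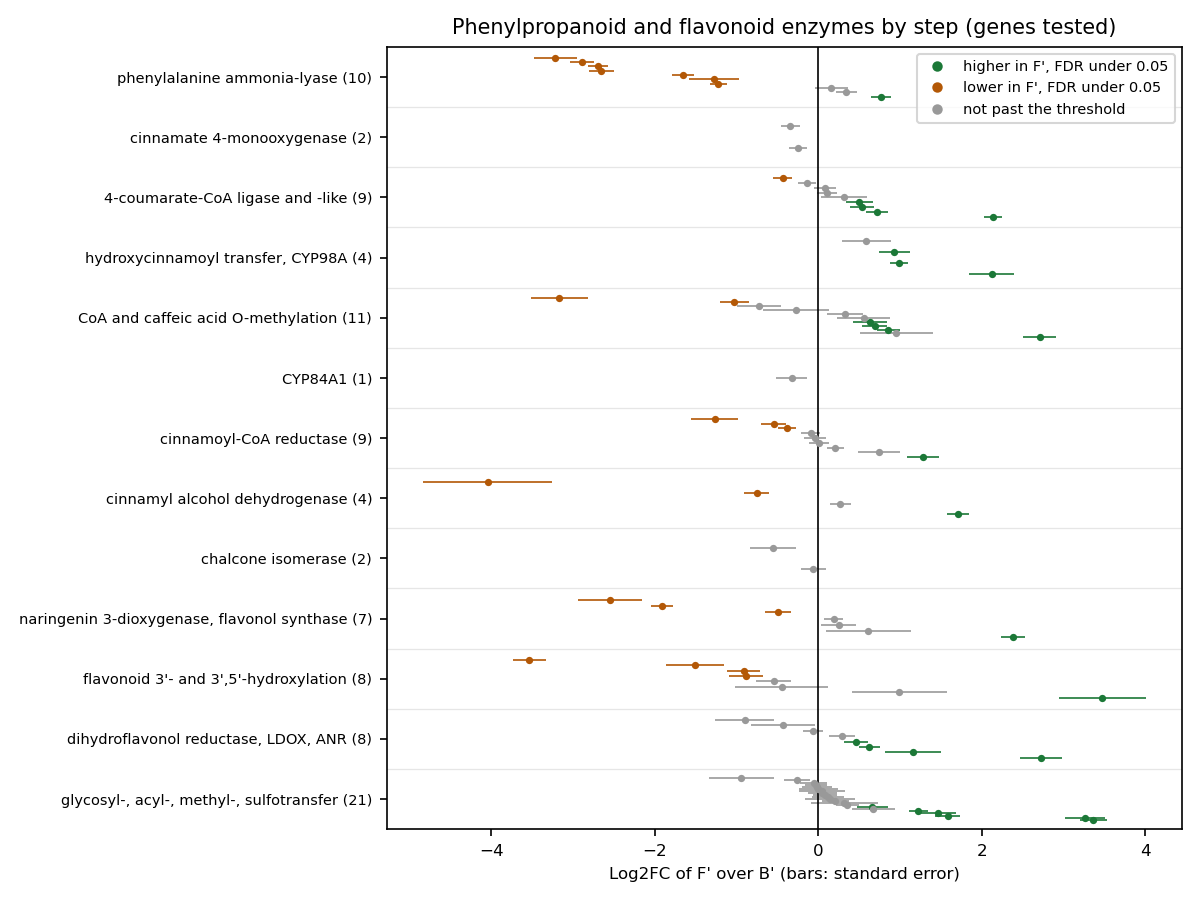
Log2FC of F’ over B’ of each tested gene of the phenylpropanoid and flavonoid lists, by step of the pathway, with standard errors as bars and DEGs in colour. At the first step, 7 of 10 PAL genes are DEGs below 0, and at the last step, transfer of sugars and other groups, 6 of 21 genes are DEGs above 0 and the others are not DEGs.

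Of 46 tested flavonoid genes, 12 were higher and 7 lower in F’, with a median Log2FC of 0.10. Without F’ library 2 and B’ library 3, 11 were lower. Of the lower members, 3 lay at the step of naringenin 3-dioxygenase and flavonol synthase and 4 at ring hydroxylation. At reduction and at transfer of sugars and other groups lay 10 of the 12 higher ones. The flavonoid 3’-monooxygenase-like gene LOC102588381 had 68, 30 and 57 counts in F’, against 617, 620 and 696 in B’ (Log2FC −3.53, standard error 0.202, FDR 2.45e-06), and 27 to 42 in A’. The enzyme adds a hydroxyl group to the B ring of flavonoids. Another locus of the same product name, LOC102594469, was at the floor in B’ with 2, 2 and 1 counts and had 23, 19 and 13 in F’. At flavonol synthase/flavanone 3-hydroxylase, the locus LOC102603761 on chromosome 3 had 320, 255 and 273 counts in F’, against 56, 59 and 60 in B’ (2.38, standard error 0.148, FDR 3.52e-06). LOC102585933, on an unplaced contig, had 176, 128 and 184 counts in F’ and 650, 603 and 726 in B’ (−1.91). In A’ it had 1, 3 and 1 counts, so both bulks lay above A’. Its neighbour LOC102586931 had 5, 3 and 7 in F’ and 34, 27 and 36 in B’ (−2.55). The locus with the symbol FLS (0.25, FDR 0.428) and LOC102590301 (0.19, FDR 0.271) did not pass. LOC102603048, a putative inactive flavonol synthase 2, did not pass either (0.61, FDR 0.426), with 44, 14 and 51 counts in F’ and 12, 19 and 46 in B’. LOC102590301 and LOC102603048 passed without F’ library 2 and B’ library 3, with Log2FC of 0.30 and 1.63. The remaining loci, LOC102579177 and LOC102602715, had at most 9 counts in any of the 6 libraries and were not tested.

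Dihydroflavonol 4-reductase leads from dihydroflavonols towards anthocyanidins. LOC102584871, of this name, had 95, 64 and 82 counts in F’, against 12, 13 and 14 in B’ (Log2FC 2.72). Anthocyanidin 3-O-glucosyltransferases attach the sugar that makes an anthocyanidin a stable pigment, and 4 of the 9 tested were higher in F’, with 0 lower in edgeR (0 at an unadjusted p under 0.05 and 0 in DESeq2). LOC102601479, on chromosome 2, had 669, 629 and 655 counts in F’ and 56, 85 and 64 in B’ (3.36, standard error 0.166, FDR 1.57e-06). LOC107060575, on the same contig, had 226, 241 and 181 counts in F’ and 27, 28 and 18 in B’ (3.26, standard error 0.244, FDR 9.66e-06). Both carry the product name anthocyanidin 3-O-glucosyltransferase 5-like, which is given by sequence likeness. Leucoanthocyanidin dioxygenase genes did not pass the test (LOC102599937, −0.07; LOC102582752, −0.43; LOC102598323, −0.90). The 2 chalcone isomerase genes tested did not pass (Log2FC −0.06 and −0.55).

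In sterol and glycoalkaloid synthesis, no gene passed the cutoff. Of 32 tested genes, 7 were higher and 6 lower, with a median Log2FC of 0.03. The lower number was 11 without F’ library 2 and B’ library 3. Squalene monooxygenase-like LOC102579136, of the enzyme that oxidises squalene before ring closure, had 13051, 14552 and 12531 counts in F’, against 4640, 4696 and 4160 in B’ (1.69, standard error 0.14, FDR 1.62e-05). It had the largest Log2FC of the list. Squalene synthase (LOC102581159, 0.47) and squalene epoxidase 3-like (LOC102585235, 0.68) were higher too. On the lower side stood enzymes of the mevalonate pathway, with 3-hydroxy-3-methylglutaryl-coenzyme A reductase 2 (LOC102577899, −0.59), another reductase of this kind (LOC102599791, −0.65), phosphomevalonate kinase-like (LOC102593814, −0.54) and diphosphomevalonate decarboxylase-like (LOC102604354, −0.48). Cycloartenol Synthase-like LOC102602455, at the branch to plant sterols, had a Log2FC of −0.40. Of delta(7)-sterol-C5(6)-desaturases, LOC102587419 had 1403, 1570 and 1461 counts in F’ and 807, 843 and 798 in B’ (0.97), while LOC102602151 had 299, 346 and 345 in F’ and 598, 597 and 558 in B’ (−0.71). The rhamnosyltransferase that completes solanine and chaconine (LOC102577928) had 245, 243 and 226 counts in F’, against 165, 159 and 117 in B’ (0.80, standard error 0.179, FDR 0.00715), and 1665 to 1724 in A’. Of the putative UDP-rhamnose:rhamnosyltransferase 1 loci, LOC107061623 had 18, 26 and 33 counts in F’ and 36, 25 and 17 in B’ and did not pass (FDR 0.888). LOC102600828 and LOC107062243 had at most 8 counts in any of the 6 libraries and were not tested.

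Terpene synthases make volatile and defensive terpenes. Of 10 tested, 4 were higher in F’ and 0 lower in edgeR (0 at an unadjusted p under 0.05 and 0 in DESeq2), with a median Log2FC of 1.04. Without F’ library 2 and B’ library 3, 8 were higher. Beta-caryophyllene synthase-like LOC102599128 had 181, 151 and 143 counts in F’, against 12, 14 and 14 in B’ (3.67, standard error 0.22, FDR 2.88e-06). (-)-Germacrene D synthase-like LOC102598796 had 388, 282 and 446 counts in F’ and 32, 53 and 49 in B’ (3.16, standard error 0.215, FDR 5.67e-06). Vetispiradiene synthase 3-like LOC102583484 (1.44), whose product name is that of a step in phytoalexin synthesis, and beta-amyrin synthase LOC102592553 (0.82) were higher as well. In A’, LOC102598796 had 197 to 232 counts, between the counts of F’ and B’.

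Among the transcription factors of defence, more genes were lower than higher in F’. Of 56 tested WRKY genes, 24 were lower (42.9%, against 16.3% of all genes) and 7 higher, 10 lower and 2 higher past the cutoff, with a median Log2FC of −0.35. Of the 8 markers of senescing leaves, 4 were lower and 1 higher, and the part of leaf age in the results on WRKY and PR genes was not tested. WRKY 40 was the extreme. The locus LOC102599114 (chromosome 8, positions 560932 to 563099 of its contig) had 11, 7 and 13 counts in F’, against 240, 266 and 539 in B’ (−4.93, standard error 0.368, FDR 9.56e-06). The neighbouring locus LOC102600986, of the same product name, had 120, 125 and 146 counts in F’ and 1744, 2177 and 3158 in B’ (−4.05, standard error 0.207, FDR 1.57e-06). WRKY 70 (LOC102581335), a regulator of salicylic acid responses in Arabidopsis, had 500, 373 and 545 counts in F’ and 4099, 4965 and 6616 in B’ (−3.35). WRKY 6 (LOC102577893) had 616, 340 and 586 in F’ and 4023, 4875 and 7776 in B’ (−3.32), and WRKY 51 (LOC102604232) had 82, 51 and 93 in F’ and 750, 1003 and 1736 in B’ (−3.82). In these genes B’ library 3 was the highest library, and the other B’ libraries still lay above every F’ library. A’ had 1088 to 1108 counts of WRKY 70 and 1164 to 1248 of WRKY 6, between F’ and B’. The higher members past the cutoff had few counts, with WRKY 71 (LOC102593379) at 63, 61 and 60 in F’ and 9, 3 and 5 in B’ (3.52) and WRKY 44 (LOC102603993) at 55, 36 and 43 in F’ and 12, 9 and 8 in B’ (2.30). The number of higher members was 4 without F’ library 3 and 11 without F’ library 2 and B’ library 3.

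Ethylene-responsive and dehydration-responsive (AP2/ERF) factors also had more lower than higher members, with 33 lower and 6 higher of 71 tested and a median Log2FC of −0.53. The higher number was 1 without F’ library 3, 3 without B’ library 2, and 11 without F’ library 2 and B’ library 3. ERF027-like LOC102605338 had 4, 3 and 3 counts in F’, against 62, 44 and 57 in B’ (−3.87), and ERF025-like LOC102601547 had 15, 8 and 11 counts in F’, against 125, 145 and 131 in B’ (−3.44). ERF1-like LOC102587576 had 417, 354 and 456 counts in F’ and 1350, 1681 and 1842 in B’ (−1.88). On the higher side, RAP2-7-like LOC102606071 had 79, 39 and 65 counts in F’ and 8, 23 and 35 in B’ (1.58), and ERF034-like LOC102589769 had a Log2FC of 1.27. All 4 tested DREB1 genes, which act in the cold response of other plants, were lower. The DREB1E-like gene LOC102585755 had 21, 18 and 12 counts in F’ and 119, 112 and 168 in B’ (−2.84), and it lies on the same contig of chromosome 8 as LOC102586090 (−3.87) and LOC102585416 (−1.81).

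Of 85 tested PR proteins, chitinases, glucanases and osmotins, 32 were lower and 14 higher in F’. Osmotins and thaumatin-like proteins (PR-5) had 7 of 11 lower and 0 higher in edgeR (1 at an unadjusted p under 0.05, 0 in DESeq2 and 1 without F’ library 1). Osmotin-like OSML13 (LOC102592911) had 6461, 7074 and 6743 counts in F’, against 27024, 32013 and 33290 in B’ (−2.07, standard error 0.13, FDR 3.96e-06). Glucan endo-1,3-beta-glucosidases, which cleave fungal and plant glucans, had 14 of 34 lower and 5 higher. The acidic PR-Q’-like gene LOC102605428 had 1211, 1539 and 1193 counts in F’ and 11060, 13073 and 11534 in B’ (−3.05). PR protein P2-like (LOC102581074) had 1231, 821 and 1400 counts in F’ and 7892, 11061 and 14149 in B’ (−3.15), and the basic PR-1-like genes LOC102589441 and LOC102590997 had Log2FC of −2.19 and −2.35. Among pathogen-related genes, LOC102590131 had 78, 60 and 87 counts in F’ and 545, 652 and 1116 in B’ (−3.24). Chitinases had 6 of 20 higher and 1 lower, and 4 higher past the cutoff. Endochitinase 4-like LOC102580398 had 16899, 23620 and 17053 counts in F’, against 3708, 3811 and 2886 in B’ (2.59, standard error 0.209, FDR 1.44e-05). Endochitinase-like LOC102589117 had 229, 298 and 188 in F’ and 37, 35 and 35 in B’ (2.86). The lower chitinase was the basic endochitinase LOC102590998 (−1.43). In DESeq2 and without F’ library 2, 2 chitinases were lower, and without F’ library 2 and B’ library 3, 3 were lower. The difference in direction between the families was not tested. Chitinase and glucanase genes have near copies, between which reads could have been split.

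**Figure D5:**
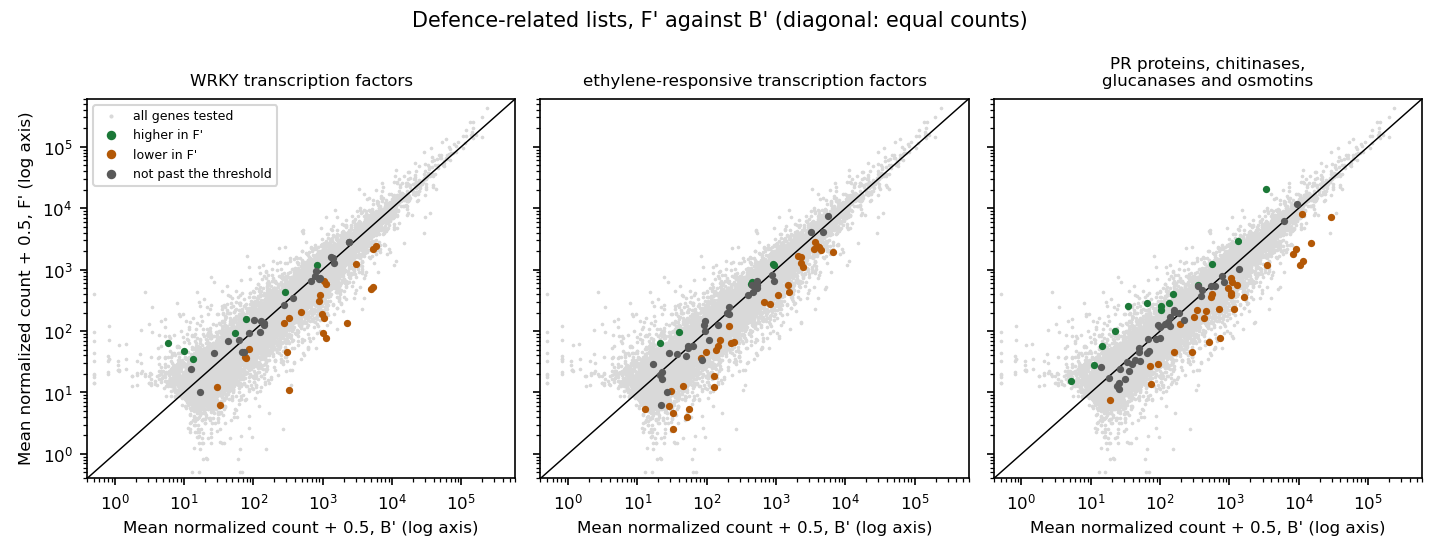
Mean normalized count plus 0.5 in F’ (vertical log axis) against that in B’ (horizontal log axis) of the tested WRKY genes, AP2/ERF factors and PR proteins, chitinases, glucanases and osmotins, over all genes tested in grey. Points below the diagonal have lower counts in F’, as have the DEGs for 24 of 56 WRKY genes, 33 of 71 AP2/ERF genes and 32 of 85 genes of the PR list.

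In the jasmonate and oxylipin pathway, 9 of 31 tested genes were lower and 5 higher, and the higher number was 3 without B’ library 1 or 2. The 9-lipoxygenase gene POTLX-3, of an enzyme that adds oxygen to linoleate, had 29, 23 and 36 counts in F’, against 349, 369 and 502 in B’ (Log2FC −3.67, standard error 0.196, FDR 1.64e-06). Of 14 lipoxygenases, 5 were lower and 1 higher. Without F’ library 3, 3 were lower, and without F’ library 2 and B’ library 3, 8 were lower and 2 higher. A 12-oxophytodienoate reductase 1-like gene (LOC102579639), of a family that holds jasmonate precursors’ reductases, had 2330, 1951 and 2471 counts in F’ and 623, 697 and 800 in B’ (1.78), while another of this name (LOC102579964) had 507, 434 and 496 in F’ and 1383, 1258 and 1112 in B’ (−1.28). TIFY proteins, repressors of jasmonate signalling, had 2 of 9 lower and 1 higher (0 higher without B’ library 1 or 2, and 2 without B’ library 3, also when F’ library 2 was left out too), with 32, 7 and 17 counts of TIFY 5A-like LOC102602038 in F’ and 65, 91 and 172 in B’ (−2.43). Methyl jasmonate esterase (MJE) had 1728, 1447 and 1772 counts in F’ and 928, 1035 and 1258 in B’ (0.73). Of 40 protease inhibitors, which slow insect digestion, 12 were lower and 7 higher. The ethylene-responsive proteinase inhibitor 1 gene LOC102585421 had 97, 61 and 96 counts in F’, against 493, 666 and 782 in B’ (−2.82), and proteinase inhibitor type-2 P303.51 (LOC102605262) had 6905, 5130 and 6673 in F’ and 1982, 2363 and 2413 in B’ (1.58). Of 237 tested genes for NLR proteins, intracellular immune receptors, 58 were lower and 18 higher, with a median Log2FC of −0.32. Without F’ library 2 and B’ library 3, 43 were higher and the median was −0.14. TMV resistance protein N-like LOC102579089 had 28, 14 and 31 counts in F’ and 160, 194 and 278 in B’ (−2.99). Disease resistance protein At4g27190-like LOC102596811 had 22, 15 and 23 in F’ and was at the floor in B’ (at least 7.16-fold higher), as was a probable disease resistance gene, LOC102600040 (at least 9.46-fold). RPP13 LOC102587953 had 18, 10 and 7 counts in F’ and 74, 50 and 79 in B’ (−2.41). A miraculin-like gene (LOC102597537) had 627, 609 and 635 in F’ and 171, 214 and 183 in B’ (1.83), and the proteinase inhibitor gene LOC102584450 had a Log2FC of −2.47. Protease inhibitors had 11 higher members without F’ library 2 and B’ library 3.

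Cytochrome P450 genes were higher in F’ more often than lower, with 45 higher and 24 lower of 130 tested and a median Log2FC of 0.16. All 5 tested CYP76A2 genes were higher. CYP76A2 LOC102594703 had 803, 820 and 879 counts in F’, against 150, 139 and 95 in B’ (2.81), and LOC102594375 was at least 7.85-fold higher in F’. CYP71D7-like LOC102593282 was at least 6.76-fold lower. Of 21 genes with product names in CYP71A, a subfamily of specialised metabolism, 12 were higher and 2 lower. Only 1 was lower without F’ library 1 or 3 or B’ library 1 or 2, and 4 without F’ library 2 and B’ library 3. A run of them on a single contig of chromosome 3, LOC102591644, LOC102602802 and LOC102590971, had Log2FC of 2.46, 2.46 and 2.41. LOC102591644 had 1295, 1214 and 1274 counts in F’ and 233, 260 and 252 in B’. CYP736A12-like LOC102579200 had 1527, 1162 and 1362 counts in F’, against 196, 183 and 217 in B’ (2.87), and CYP82C4-like LOC102586474 had 1138, 1093 and 1142 in F’ and 143, 165 and 118 in B’ (3.09). Hormone-related members were among the lower ones. CYP90B1 (LOC102603786), which acts in brassinosteroid synthesis, had 212, 168 and 247 counts in F’ and 768, 758 and 1087 in B’ (−1.94), and brassinosteroid-6-oxidase CYP85A1 (LOC102603315) had a Log2FC of −0.95. Of 4 tested CYP94 genes, 2 were lower and 0 higher in edgeR (1 at an unadjusted p under 0.05 and 0 in DESeq2). In Arabidopsis, some but not all CYP94 enzymes inactivate jasmonoyl-isoleucine, and whether these potato genes act on it was not tested. CYP94A1-like LOC102582727 had 84, 43 and 59 counts in F’ and 255, 297 and 372 in B’ (−2.20).

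UDP-glycosyltransferases had 44 higher and 31 lower of 153 tested, with a median Log2FC of 0.10. Beside the genes named above, UDP-glycosyltransferase 79B8-like LOC107061873 had 50, 53 and 45 counts in F’, against 2, 3 and 7 in B’ (3.71), and 73C5-like LOC102604180 had 171, 157 and 216 in F’ and 31, 40 and 40 in B’ (2.40). At high counts, 90A1-like LOC107062557 had 4530, 5138 and 4968 in F’ and 1381, 1598 and 1394 in B’ (1.86). The most lowered were genes named after a crocetin glucosyltransferase, of which LOC102604618 was at the floor in F’ and at least 11.03-fold lower and LOC102602552 at least 7.58-fold lower. UDP-glycosyltransferase 71E1-like LOC102594045 had 3, 0 and 11 counts in F’ and 48, 54 and 71 in B’ (−3.48), with 0 in each A’ library. Scopoletin glucosyltransferase LOC102583517, of an enzyme that stores the coumarin scopoletin as its glucoside, had 1023, 990 and 1177 counts in F’ and 2286, 2743 and 2695 in B’ (−1.16). Of 38 glutathione S-transferases, 12 were lower and 6 higher, and the higher number was 3 without F’ library 3. U17-like LOC102590689 had 1793, 1818 and 1993 counts in F’ and 650, 739 and 604 in B’ (1.60), while LOC102583433 had 7, 16 and 14 in F’ and 70, 69 and 66 in B’ (−2.34), and LOC102600356 (−2.15) and LOC102591927 (0.98) followed on either side.

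Transport and assimilation of nitrogen held some of the larger changes at high counts. Of 86 tested genes, 26 were higher and 20 lower. NADH nitrate reductase (NR3), which reduces nitrate to nitrite, had 17089, 16929 and 15444 counts in F’, against 4931, 3967 and 3416 in B’ (2.12, FDR 1.2e-05). Nitrite reductase (NIR), the next step, had 9916, 9226 and 9779 counts in F’ and 6761, 6858 and 6738 in B’ (0.62). Asparagine synthetase LOC102577576, which stores nitrogen as asparagine, had 611, 921 and 788 counts in F’ and 3637, 4823 and 4385 in B’ (−2.34). Ammonium transporter 1 member 2 (LOC102578704) had 1032, 1231 and 916 counts in F’, against 152, 128 and 95 in B’ (3.20, standard error 0.216, FDR 5.54e-06). Of 56 NRT1/PTR transporters, which carry nitrate, peptides and other compounds, 19 were higher and 12 lower. NRT1/PTR 6.4-like LOC102580089 had 2055, 2290 and 2090 counts in F’ and 293, 218 and 210 in B’ (3.27), and NRT1/PTR 1.2 (LOC102593188) had 17, 17 and 18 in F’ and 169, 141 and 92 in B’ (−2.84). The amino acid transporter gene LOC102590159 (LHT 8) had 19, 6 and 22 counts in F’ and 176, 180 and 198 in B’ (−3.44). In each of these genes, the F’ and B’ libraries did not overlap, as in 44.3% of all genes tested. They were picked for a large Log2FC or after their values were seen.

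Genes of light harvesting and carbon fixation had more higher than lower members in F’. Of 35 light-harvesting genes, 10 were higher (28.6%) and 7 lower (20%), so both shares were above those of all genes (13.7% and 16.3%). Past the cutoff, 0 of them were higher and 2 lower. Tested against a minimum Log2FC of 1, 0 were higher and 3 lower. Chlorophyll a-b binding protein 4 (LOC102594074) had 227483, 247576 and 244327 counts in F’, against 152042, 167406 and 147238 in B’ (0.74), and LOC102604320 (1.31) and LOC102606321 (0.78) were higher too. The lowest Log2FC of the list belonged to 3C genes on an unplaced contig, LOC102604990 (−3.58), LOC102605888 and LOC102605549 (−1.07). LOC102605888 had 374, 313 and 318 counts in F’ and 3228, 3201 and 2211 in B’, whereas the abundant 3C-like gene LOC102603644 of the same contig had 271486, 319237 and 268530 in F’ and 199514, 225047 and 192233 in B’ (0.60). Reads of these near copies could have been split. Of 46 genes of photosystem cores and electron transport, 9 were higher and 0 lower in edgeR (3 at an unadjusted p under 0.05 and 1 in DESeq2), and without F’ library 2 and B’ library 3, 16 were higher and 4 lower. Photosystem II 5 kDa protein LOC102602387 had 6746, 5847 and 8148 counts in F’ and 981, 1174 and 1285 in B’ (2.70, standard error 0.143, FDR 1.6e-06), and LOC107058610, of the same name, had a Log2FC of 1.96. Of 19 Calvin cycle genes, 7 were higher and 1 lower. RuBisCO activase LOC102596435, which keeps RuBisCO active, had 403822, 444252 and 371160 counts in F’, against 272805, 254338 and 210453 in B’ (0.84). RuBisCO activase 1 (LOC102590242) had 965, 1056 and 888 counts in F’ and 269, 255 and 266 in B’, and a glyceraldehyde-3-phosphate dehydrogenase (LOC102606161) had a Log2FC of 1.06. The single lower gene, a RuBisCO small chain (LOC102600888, −0.41), did not pass when F’ library 1 or 2 or B’ library 1, 2 or 3 was left out, and without F’ library 2 and B’ library 3, 2 genes were lower. Chloroplast carbonic anhydrase (LOC102591490) had 95546, 86547 and 94090 counts in F’ and 37299, 37781 and 38845 in B’ (1.39, standard error 0.106, FDR 1.04e-05). The plastid aldolases LOC102577738 (1.17) and LOC102606020 (1.12) were the other most abundant genes with a Log2FC of at least 1. The mesophyll markers are in large part these same genes, so they are no separate measure, and the part of leaf composition in these results was not tested.

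Starch and sucrose genes had 9 higher and 15 lower of 66 tested, and 14 were higher without F’ library 2 and B’ library 3. The sugar transporter N3 (LOC102598354) had 18584, 18927 and 20350 counts in F’, against 45236, 47233 and 40143 in B’ (−1.09). Other SWEET transporters, which export sugars, were higher (LOC102591902, 1.83, and LOC102599419, 1.03), and a cell wall invertase (LOC102604230, −1.44) was lower. A mitochondrial-like neutral invertase (LOC102588661), which splits sucrose, had a Log2FC of −1.77, and granule-bound starch synthase (GBSS), which makes amylose, had 17081, 16968 and 15566 counts in F’ and 11082, 10417 and 8733 in B’ (0.83).

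Of 53 clock and light-signalling regulators, 15 were higher and 14 lower, and the lower number was 9 without B’ library 2. The morning gene LHY (LOC102601616) had 929, 949 and 872 counts in F’, against 182, 159 and 136 in B’ (2.64, standard error 0.154, FDR 2.64e-06). REVEILLE 8-like LOC102604654, of a related factor, had 835, 794 and 745 counts in F’ and 124, 164 and 225 in B’ (2.33). Components of the evening complex in Arabidopsis, LUX and ELF4, were lower at LOC102581432 (−1.50), LOC102588078 (−1.15) and LOC102603103 (115, 135 and 135 counts in F’ and 303, 284 and 244 in B’), and GIGANTEA-like LOC102583457 was lower as well (−0.79). ELF3-like LOC102601288 (0.79) and the ELF4-like gene LOC102589345 (0.77) were higher. CONSTANS (CO), a regulator of flowering and tuberisation by day length, had 706, 803 and 707 counts in F’ and 273, 253 and 269 in B’ (1.60). CONSTANS-LIKE 16 (LOC102578395) had 205, 142 and 225 in F’ and 1172, 1215 and 1149 in B’ (−2.52), and CONSTANS-LIKE 14 (LOC102603812) had a Log2FC of −2.10. The time of day at which leaves of each bulk were collected is not given in the sources used here, so its part in these differences was not tested.

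Among histones and cell cycle genes, 17 of 56 tested were higher and 3 lower, with a median Log2FC of 0.30. The markers of dividing cells share genes with this list, those of the lowest and highest Log2FC among them, so they are no separate measure. The lower number was 1 when F’ library 1, 2 or 3 or B’ library 2 or 3 was left out. Of the 4 genes for the linker histone H1, 3 were higher, among them LOC102589354 with 3907, 3905 and 4226 counts in F’, against 1804, 2104 and 2318 in B’ (1.07). Of the 6 genes for MCM helicases, which unwind DNA at replication, 3 were higher and 0 lower in edgeR (0 at an unadjusted p under 0.05 and 0 in DESeq2), with Log2FC up to 0.95. The histone variant gene LOC102590569 (H3.v1-like) had 2456, 2243 and 2547 counts in F’ and 829, 769 and 821 in B’ (1.70). Histone H3.3 LOC102593235 had 544, 527 and 526 in F’ and 1189, 1249 and 1352 in B’ (−1.13). Histone H4 LOC102597419 (1.82) was higher and a putative cyclin-A3-1 gene (LOC102585677, −1.04) was lower. Histone genes have near-identical copies, between which reads could have been split, so single values are uncertain.

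Few genes of cytosolic ribosomal proteins were DEGs. Of 220 tested, 11 were higher and 9 lower, and the median Log2FC was −0.002. The higher number was 7 without F’ library 3, 21 without B’ library 3, and 34 without F’ library 2 and B’ library 3. The lower number was 3 without F’ library 1, 4 without B’ library 2, and 15 without F’ library 2 and B’ library 3. The outermost members were LOC102592155 (S21, 1.23), LOC102583043 (L10, 1.21), LOC102599440 (L9-1, −0.61) and LOC102600627 (L23a, −1.63). Of 132 heat shock proteins and factors, 33 were higher and 24 lower. A heat shock cognate 70 kDa gene (LOC102595219), of a chaperone, had 2162, 2716 and 1806 counts in F’, against 338, 329 and 213 in B’ (3.04, standard error 0.243, FDR 1.32e-05), and a 70 kDa heat shock gene (LOC102588418) had a Log2FC of 2.05. Small heat shock proteins had 8 of 20 higher and 3 lower, while heat stress transcription factors had 7 of 17 lower and 1 higher (2 higher without F’ library 2 and B’ library 3). Chaperone protein dnaJ 20 (LOC102605695) had 177, 145 and 206 counts in F’ and 987, 1162 and 1615 in B’ (−2.71), and DnaJ-like LOC102581836 had a Log2FC of −2.54.

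Among genes placed on a chromosome, the differences were spread over all chromosomes. Another 7859 tested genes had no single known chromosome, and 316 of them (4.02%) passed the cutoff. Between 14.3% (chromosome 11) and 21.1% (chromosome 4) of the tested genes of a chromosome were lower in F’, and 11.9% (chromosomes 1 and 2) to 16.7% (chromosome 5) were higher. Among the chromosomes, the share past the cutoff was lowest on chromosome 10 (1.61%) and highest on chromosome 4 (4.38%).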

How the data were processed

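Raw read counts per gene, as deposited by the authors, were taken from the tables of A’ against B’ and of A’ against F’. The submitters’ processing notes name TopHat2 2.0.9, Bowtie2 2.1.0 and DESeq2, and the contigs of the tables are those of the potato RefSeq assembly SolTub_3.0. The tool that counted reads and its use of strand are not given in the sources used here. Columns with the authors’ own fold changes and tests were not used. Libraries of F’ (3) and B’ (3) were joined on the 22988 genes of both comparisons, where the A’ counts were identical between tables. Genes in either table alone were not tested.

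Counts were filtered with filterByExpr, normalized by TMM and tested with edgeR 4.0.16 (glmQLFTest, robust, in R 4.3.3) on the 3 libraries of either bulk, with Benjamini-Hochberg adjustment over 19308 genes (limma 3.58.1). DEGs had an FDR under 0.05, and the further cutoff was an absolute Log2FC of 2. Normalized counts were scaled to the mean effective library size. The floor was 3 counts per library, and fold changes against a bulk at or under it are lower bounds. Alternatives were DESeq2 1.42.0, upper-quartile factors, no filter, a replicate block, a joint fit of all 9 libraries, glmTreat, an FDR of 0.01 and leaving out libraries. On simulated counts of 19295 genes, 92 of 100 genes changed by a Log2FC of 1 and 99 of 100 changed by 2 were called, with 7 unchanged genes called. Only 200 genes were changed there, none of them with a low mean count, and all genes shared the same coefficient of variation. These shares therefore need not hold for the real genes.

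Gene lists came from words in the product names, with 2336 of 2406 matches kept and 70 taken out as other products. Families within lists were split after values were seen. Members and lists were chosen with earlier results of these data known. Genes were named in the text by rule: the 12 DEGs on either side with the largest Log2FC, at least 50 normalized counts in each library of the higher bulk and libraries that did not overlap, the 2 largest on either side in each list with a mean of at least 20, all flavonol synthase and rhamnosyltransferase loci, genes named in the study, and the 3 most abundant on either side with an absolute Log2FC of at least 1. Other genes named were chosen after their values were seen.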

Additional observations from a re-analysis of the deposited data

How the results depend on the processing

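None of the 5785 DEGs changed sign under any alternative run. The alternatives reused the libraries from which the DEGs were picked, so a change of sign was unlikely from the start. With glmTreat and an FDR of 0.01 it was not possible, since the Log2FC stayed the same. DESeq2 called 5907 genes, 5602 of them shared with edgeR, upper-quartile factors gave 5781, the joint fit 6422 and no filter 5885. Against a minimum Log2FC of 1, glmTreat called 1016 genes (380 higher and 636 lower), and at an FDR under 0.01, 3459 passed (1511 higher and 1948 lower). Leaving out a library gave 4122 to 6386 DEGs, 1814 to 3020 higher and 2308 to 3366 lower, with 720 to 795 past the cutoff, 258 to 360 higher and 435 to 500 lower. Without F’ library 2 and B’ library 3, an alternative chosen after seeing the data, 8413 genes passed, 4123 higher and 4290 lower, and 399 higher genes passed the cutoff. Among the libraries left in that alternative, bulk and component 2 cannot be told apart. The cause of these differences was not tested.

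The counts do not settle whether the replicate numbers pair the samples. Deviations of same-numbered libraries correlated at −0.126, 0.338 and 0.350, and those of the other pairs at −0.47 to 0.33. With the number as a block, 7082 genes passed (3334 higher and 3748 lower), 5753 of them shared. List counts that the block moved by over 1.5 times were those of light-harvesting genes (17 higher), photosystem genes (1 lower), sterol genes (10 lower), starch genes (15 higher) and ribosomal genes (22 higher and 14 lower). No call changed under the block among the 127 genes named by rule. Of these, 23 lost their call under glmTreat, 5 at an FDR under 0.01, 2 under upper-quartile factors and 2 to 5 when a library was left out. With 3 libraries of a bulk and 22027727 to 22388763 counts each, genes with few counts had wide errors, and 3680 genes were not tested. The median Log2FC of the photosystem, pectin, flavonoid, sterol, heat shock, UDP-glycosyltransferase, glutathione S-transferase, starch, nitrogen and ribosomal lists lay near 0 and changed sign under at least a single alternative.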

Other observations

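Some genes were listed in a single comparison and could not be set between F’ and B’. In the table of A’ against F’ alone, 668 genes stood, 174 of them with a mean of at least 10 counts in F’. Annexin D1-like LOC102598404 had 7802, 9261 and 8335 counts in F’ and 8973, 8414 and 8369 in A’. SKP1-like protein 1B (LOC102601988) had 3929, 4312 and 4153 counts in F’ and 3629, 2853 and 3077 in A’.

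In the tables of A’ against B’ alone, 513 genes stood, 7 of them with a mean of at least 10 counts in B’. Among them, NCED6 (LOC102579540), of the family that makes the precursor of abscisic acid, had 22, 14 and 34 counts in B’ and 3, 0 and 0 in A’. Polyphenol oxidase D (LOC102604380) had 10, 21 and 7 counts in B’ and 0 in each A’ library.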
